A study of Strophostyles helvola with 12 samples.

Results

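Of the 27191 common bean gene identifiers counted in roots of Strophostyles helvola, 81 (0.298%) were read almost only in the Inland genotype. These genes were chosen by their measured levels. A gene entered when its mean level, in counts per 1000000 counted reads of a library (CPM) and with 0.5 added, was at least 16 times higher in Inland than in Beach, both with and without salt. The average of the 4 group means also had to stay under 800. No gene was removed by that last limit. The difference between Inland and Beach is therefore what the genes were selected on, and it is described here without a test.

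The 12 libraries formed 4 groups of 3 replicates from a wild relative of common bean. The Inland genotype, from central Missouri, received 50 mL per day of NaCl, at a final 200 mM (Inland treatment), or of water (Inland control). The Beach genotype, from the coast of North Carolina, received as much NaCl at a final 400 mM (Beach treatment) or water (Beach control). Each genotype stands for 1 origin, and the dose differed along with the genotype. Plants were seedlings of 10 d, each replicate pooled in equal parts the whole roots of 3 plants, 1 each from 3 h, 24 h and 7 d after the final salt level was reached, and a level is thus an average over these times. Library totals ran from 35346543 to 41330498 counts in Inland treatment, 33790610 to 39389601 in Inland control, 29205979 to 33300428 in Beach treatment and 30296680 to 32189394 in Beach control.

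Salt in the soil solution draws water from root cells and loads them with sodium and chloride, and roots answer with changes in the transcripts of many genes. Plants of one species from separate habitats can also differ in genes that are expressed in one population and silent in another. Reads of both genotypes were placed on the genome of another species, common bean. A low count in Beach can mean few transcripts or few reads that aligned, and in these tables the 2 cannot be told apart. Reads that fitted several places equally well were not counted, so members of near-identical gene families are uncertain. The identifiers come without gene names, and no function is given for any of the 81 genes. For the same reason the root identity of the tissue was not checked against marker genes.

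In Inland roots the 81 genes covered a wide range of levels. Their mean over the 6 Inland libraries ran from 9.20 to 1223 CPM with a median of 36.5 CPM. It was above 100 CPM for 16 genes, between 20 and 100 CPM for 44 and under 20 CPM for 21. Every one of the 81 exceeded 5 CPM in each Inland library, the lowest single value being 6.14 CPM. The highest value of any of them in a Beach library was 10.4 CPM. For each gene the lowest Inland library lay above its highest Beach library, by at least 11.1 times for the genes with any Beach count. This separation and the levels over 5 CPM largely follow from the limits that the rule set on the group means.

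**Figure D1:**
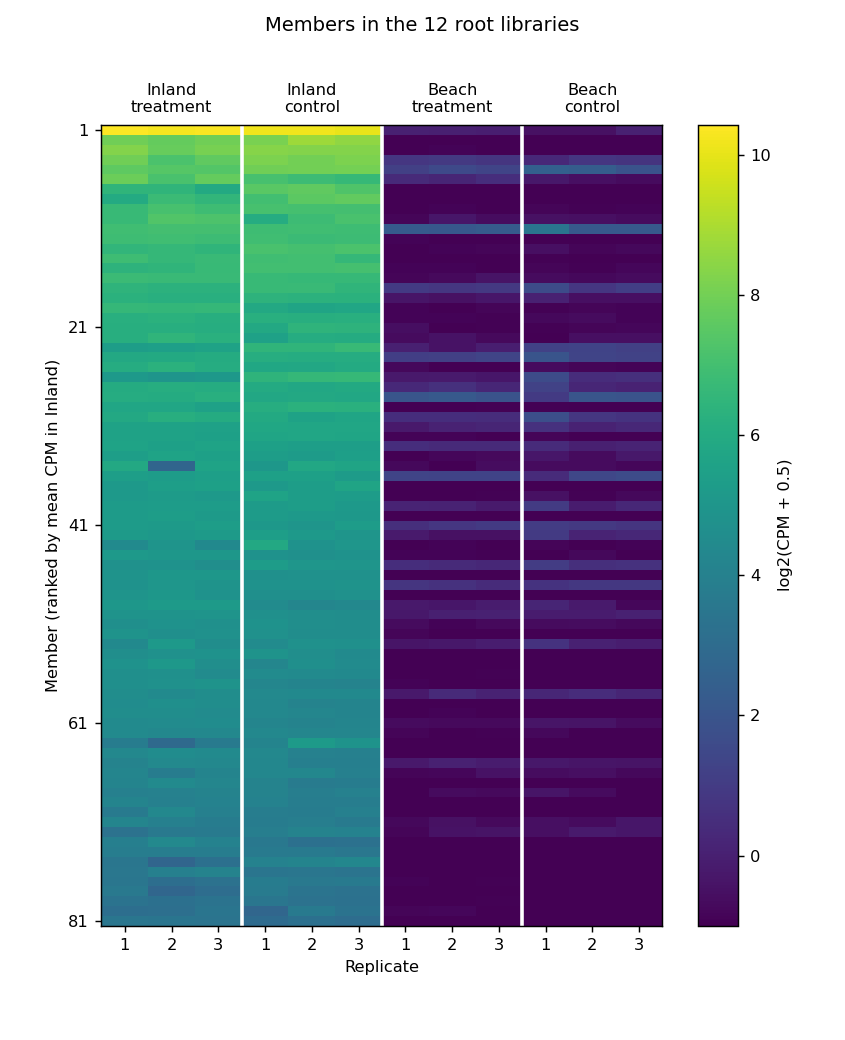
Level of the 81 genes (rows, ranked by their mean in Inland) in the 12 libraries (columns, 3 replicates in each of 4 groups), as log2 of CPM plus 0.5. All 6 Inland columns are filled over the whole range of ranks, while the Beach columns are dark apart from scattered rows that hold up to 10.4 CPM.

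Phvul.004G075100 was the most abundant of them. It held 1375, 1251 and 1333 CPM in Inland treatment and 1147, 1163 and 1072 CPM in Inland control. In Beach treatment it held 0.521, 0.514 and 0.480 CPM, and in Beach control 0.218, 0.222 and 0.528 CPM. The Inland groups did not overlap each other in CPM. In the salt test described below, the gene was not called, at a log2 fold change of 0.15 (edgeR fdr = 0.1529). Its Beach level was 0.0338% of the Inland level. This single gene made up 20.9% of the summed level of all 81 in Inland, and the 5 most abundant made up 38.7%. The next 4 were Phvul.005G088600, Phvul.010G079900, Phvul.005G081500 and Phvul.010G067900, with Inland means of 295, 292, 236 and 215 CPM.

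Summed over the 81 genes, Inland treatment libraries held 5817, 5526 and 5720 CPM and Inland control libraries 5927, 6121 and 5986 CPM. Beach treatment libraries held 28.5, 30.03 and 29.7 CPM and Beach control libraries 49.8, 35.03 and 33.5 CPM. The sum in Beach was 0.517% of that in Inland with salt and 0.656% without. Every Inland library lay far above every Beach library, and the highest Beach library was Beach control replicate 1. Between bulk roots, fewer cells of a type and less RNA per cell cannot be told apart.

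The Beach remainder was uneven. No read fell on 21 of the 81 genes in any Beach library (25.9%), while 34 had at least 1 count in each of the 6 Beach libraries. Over the 6 Beach libraries together, 19 genes held 1 to 10 counts, 22 held 11 to 100 and 19 held more than 100. The median was 11 counts. Where a library showed none, its true level could still correspond to 3 counts, at most 0.103 CPM in the shallowest library, a limit that covers counting error only. As a percentage of the Inland level, the Beach level had a median of 0.0955%. It was under 0.1% for 41 genes, at least 1% for 24 and at most 5.07%. Genes higher in Inland were not uniformly the ones with more Beach reads (Spearman rho = 0.381 and Pearson r = 0.309 on the log2 scale). These values cover 81 genes that share the same libraries and are given as a description. The rule capped the Beach level of each gene by its Inland level, so a positive value can be partly built in.

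Among the genes with no Beach read, Phvul.005G088600 had the highest Inland level. It held 245, 210 and 244 CPM in Inland treatment and 278, 424 and 367 CPM in Inland control, which is 7425 to 14452 counts per library against 0 in each Beach library. The Inland groups did not overlap. With 3 counts over all Beach libraries taken as the limit, its Beach level was at most 0.0055% of the Inland level. The next 4 were Phvul.004G103900, Phvul.011G125400, Phvul.007G111200 and Phvul.001G107100, with Inland means of 129.7, 129.2, 41.04 and 37.2 CPM. Phvul.010G079900 came close to them, with 218 to 322 CPM in the 6 Inland libraries and a single read in 1 Beach library.

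Phvul.011G113800 stood at the other end, with the largest number of Beach reads. It held 122, 129 and 127 CPM in Inland treatment and 117, 122 and 115 CPM in Inland control. In Beach treatment it held 4.17, 3.90 and 4.32 CPM, and in Beach control 10.4, 4.07 and 4.09 CPM. Replicate 1 of Beach control was thus more than 2 times the other replicates, while the Inland replicates lay close together. The gene whose identifier comes just before it, Phvul.011G113700, was also a member, at 73.3 CPM in Inland and 0.0589 CPM in Beach.

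Beach control replicate 1 stood apart for many of the genes with Beach reads. Of the 21 genes with at least 10 counts in each Beach control library, it was more than 1.5 times both other replicates for 10, and lower than both by that factor for 3. Over 16909 genes that passed 5 CPM in 3 or more of 12 libraries, the shares were 4.45% and 4.84%. That limit lies well above 10 counts in a library, so the 2 sets are not matched in depth. Counting error weighs more on the 21 genes. Summed over the 81 genes, Beach control replicate 1 held 1604 counts, against 1103 in replicate 2 and 1015 in replicate 3. Its library total was also the highest of these replicates, by a far smaller margin. Without this library the rule gave 81 genes, 78 of them the same. The paper lists a lower GC content for Beach control replicate 1 than for the other libraries. Its share of uniquely mapped reads was lower than in the other Beach controls, though a Beach treatment library had a lower share still. Whether these properties, or anything beyond counting error, set the library apart for these genes was not tested.

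Genes near the limit were ordered by the smaller of their 2 Inland over Beach ratios, with and without salt. The 2 genes just inside it had values of 16.5 (Phvul.007G123100) and 16.7 (Phvul.001G103400). Just outside lay Phvul.006G019500 at 15.8 and Phvul.005G104300 at 14.6. Phvul.005G104300 had no read in any Beach library and 6.16 to 8.73 CPM in Inland, so that its low Inland level kept it out. Another 5 genes reached 16-fold only without salt and 6 only with salt.

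Most of the 81 genes lay within limited parts of the order of identifiers on their chromosomes. In common bean the identifiers carry the chromosome number and are numbered in the order of the genes along it. This gives an order but no distance in bases, and the order in Strophostyles helvola was not examined. Of the 80 genes with a chromosome number, 75 lay on 8 of the 11 chromosomes, and chromosome 9, with 2631 identifiers, held none. Position played no part in the selection, and the pattern is given as counts without a test.

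On 7 of these 8 chromosomes the genes fell into a single stretch each. On chromosome 1, 12 genes from Phvul.001G080800 to Phvul.001G110700 lay within 300 of 2694 identifiers (11.1%). On chromosome 3, 7 genes lay within 160 of 2973 identifiers (5.38%), the narrowest stretch. On chromosome 7, 9 genes lay within 221 of 2812 (7.86%), and on chromosome 10, 8 genes within 176 of 1659 (10.6%). On chromosome 5, 9 genes lay within 255 of 1862 (13.7%), and on chromosome 11, 12 genes within 381 of 2167 (17.6%), the widest. On chromosome 6 the 8 genes lay at the start of the order, within 291 of 2221 identifiers (13.1%). Together these stretches held 65 genes in 10.9% of the identifiers of the 7 chromosomes.

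The remaining chromosomes differed. On chromosome 4, 9 of the 10 genes lay within 311 of 1789 identifiers, and Phvul.004G033900 lay 412 identifiers before them. On chromosome 8 the 4 genes were scattered, each at least 302 identifiers from the next, and chromosome 2 held 1 gene. Phvul.L003800 carries no chromosome number. It held 117, 96.9 and 106 CPM in Inland treatment and 122, 126 and 97.3 CPM in Inland control, and 1 read in all of Beach.

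**Figure D2:**
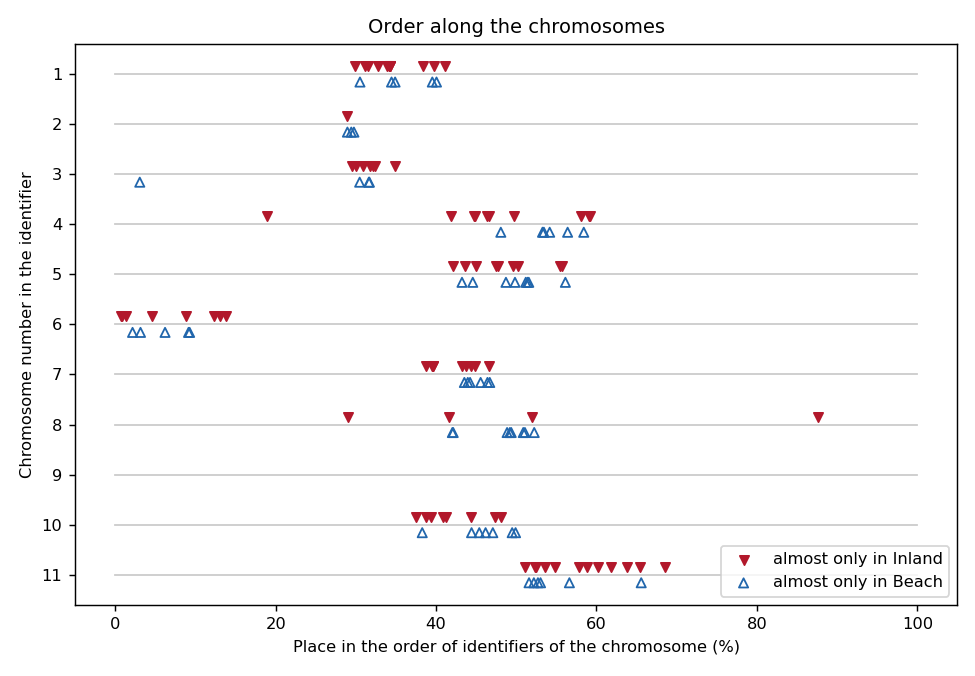
Place in the order of identifiers of each chromosome, in percent. Filled triangles are 80 of the 81 genes read almost only in Inland. Open triangles are 58 of the 59 genes selected by the mirrored rule in Beach. Genes without a chromosome number are not shown. Chromosome 9 is empty, chromosome 8 is scattered for the Inland genes, and chromosome 2 holds 1 Inland gene. On each of the other chromosomes most genes of both sets lie in the same stretch.

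The genes read almost only in Beach lay in the same places. The same rule with the genotypes exchanged gave 59 genes, 58 of them with a chromosome number. On the 7 chromosomes with a single stretch, 36 of 41 Beach genes fell inside the stretch set by the Inland genes. Chromosome 9 held no gene of either set. Counted in identifiers, the nearest other Inland gene was a median of 15 away from an Inland gene and 13.5 away from a Beach gene. For other genes, those over 5 CPM in 3 or more of the 12 libraries, it was a median of 491 away (14942 genes on chromosomes that hold one of the 81). Within 100 identifiers of another Inland gene lay 74 of 80 Inland genes (92.5%), 57 of 58 Beach genes (98.3%) and 14.1% of 16740 such other genes. The 2 sets also resembled each other in completeness, with 25.9% of the Inland genes without any read in Beach and 25.4% of the Beach genes without any in Inland.

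Other genes close to the 81 also included larger shares with a wide genotype difference, in both directions. Both sets were left out for this description, and the same other genes were grouped by the number of identifiers to the nearest of the Inland genes. The ratio used was the geometric mean of the Inland over Beach ratios with and without salt, with 0.5 added to each group mean. A 4-fold difference was thus not required in each condition. Among 302 genes at 1 to 5 identifiers, 7.28% were at least 4-fold higher in Inland and 6.29% at least 4-fold lower. At 6 to 25 identifiers these shares were 3.45% and 3.58% of 754 genes, and at 26 to 100 they were 1.15% and 1.30% of 1308 genes. Over 100 and up to 300 identifiers away they were 0.407% and 0.333% of 2703 genes. Farther away, or on a chromosome with none of the Inland genes, they were 0.266% and 0.488% of 11673 genes. Both directions declined with distance up to 300 identifiers. The median log2 ratio of Inland over Beach stayed between -0.02 and 0.02 in all 5 groups, so neither genotype was higher over these genes as a whole. Genes with a smaller ratio of 8 to 16, just short of the rule, numbered 31, and 29 of them (93.5%) lay within 100 identifiers of one of the 81.

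**Figure D3:**
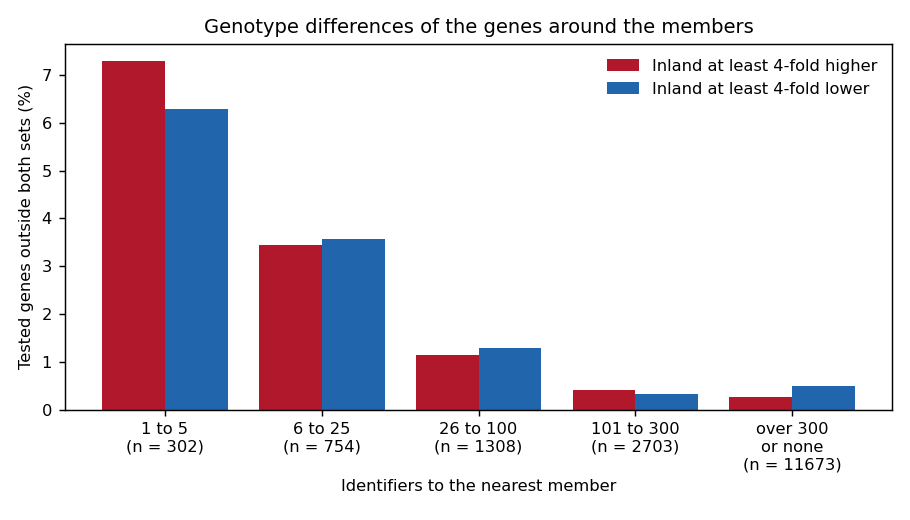
Share of tested genes outside both sets, in percent, that were at least 4-fold higher (left bars) or lower (right bars) in Inland than in Beach, by the number of identifiers to the nearest of the 81 genes. The ratio is the geometric mean of those with and without salt. Both bars are tallest at 1 to 5 identifiers, with 7.28% and 6.29%, and under 0.5% beyond 100.

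Some of the 81 genes were direct neighbours. Taking those at most 5 identifiers apart, 21 of them formed 9 groups. The largest was a run of 4 consecutive identifiers on chromosome 1, Phvul.001G092200 to Phvul.001G092500, with Inland means of 22.3, 19.1, 16.7 and 13.4 CPM in that order. The first of the 4 had 1 read in Beach and the other 3 had none. Another group of 3 on chromosome 7 was less alike. Phvul.007G111200 and Phvul.007G111500 had no Beach read at 41.04 and 25.7 CPM in Inland, while Phvul.007G111600 had 0.286 CPM in Beach at 77.9 CPM in Inland.

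Salt against water in Inland was not part of the selection, and it could be tested for all 81 genes. The rule only required at least 7.5 CPM in both Inland groups, so a gene silent in one of them could not enter. With edgeR's quasi-likelihood test over 16130 genes and Benjamini-Hochberg adjustment, the call needed both a 2-fold change and an fdr (the adjusted p) not above 0.05. By this limit 6 of the 81 genes (7.41%) were called, all lower with salt. Over all tested genes 7.48% were called, 3.38% higher and 4.1% lower. The share among the 81 was thus near the background.

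Without a minimum on the fold change, 30 of the 81 (37.04%) had an fdr of at most 0.05, against 36.4% of all tested genes. Salt-treated roots were higher for 9 of these 30 (30.0%) and lower for 21. Over all tested genes 18.8% passed this limit as higher and 17.6% as lower, so that 51.7% of those passing were higher. Libraries were scaled by TMM (trimmed mean of M-values, which sets libraries level on the bulk of genes). With library totals in its place the split was 15 higher and 17 lower among the 81, while 25.8% of all tested genes were higher and 13.2% lower. The share of higher genes moved with the scaling in both sets, and the difference between the sets was not tested. Changes stayed under 2-fold for 92.6% of the 81 and for 92.3% of all tested genes. The median size of the change was 0.217 on the log2 scale among the 81 and 0.203 among all tested genes, and the fitted changes of the 81 ran from -1.58 to 0.75.

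**Figure D4:**
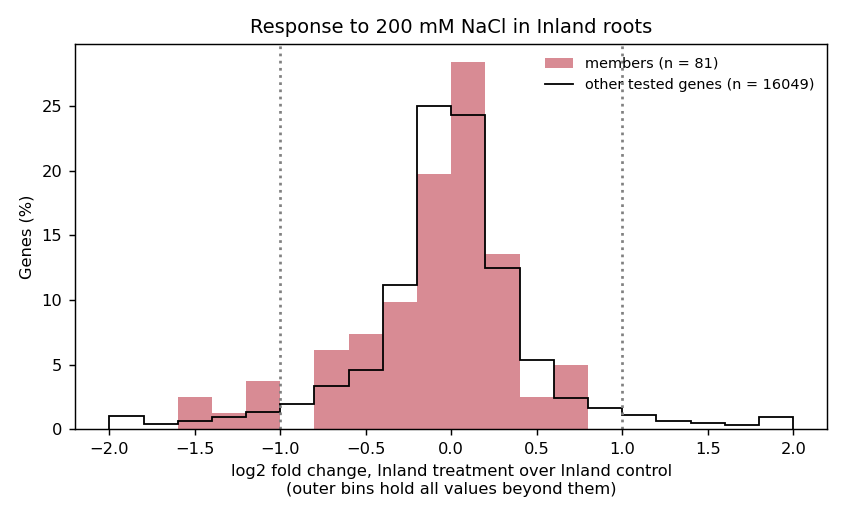
Distribution of the log2 fold change of Inland treatment over Inland control for the 81 genes (filled) and for the other tested genes (line), in percent of each set. Both distributions centre on 0, and the 6 genes left of the dotted line at -1 are the ones that were called.

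The largest fall was that of Phvul.005G078500. It held 35.9, 30.3 and 34.02 CPM in Inland treatment and 85.2, 97.5 and 101.4 CPM in Inland control. All treated libraries lay below all controls. Its log2 fold change was -1.58 (standard error 0.10, edgeR fdr = 0.0001996), and it was called in each of 14 alternative settings. Its few Beach reads were also fewer with salt, at 0.358, 0.377 and 0.300 CPM in Beach treatment and 2.52, 0.858 and 0.957 CPM in Beach control, where replicate 1 was again the highest.

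Phvul.001G110700 had the next largest fall. It held 13.5, 7.10 and 12.5 CPM in Inland treatment and 17.6, 36.7 and 29.02 CPM in Inland control, without overlap, and no read in Beach. Its log2 fold change was -1.41 (standard error 0.34, edgeR fdr = 0.0191). The gene was called in 10 of the 14 alternative settings. The call was lost without Inland control replicate 2 or 3, at log2 fold changes of -1.16 and -1.37. It was also lost without Inland treatment replicate 3, at -1.51, and kept when each of the other Inland libraries was left out. In these fits the edgeR fdr was between 0.0521 and 0.0571, just over the limit, while the fold change stayed above 2. Across the 6 called genes the fitted changes ran from -1.58 to -1.04, and 3 of the 6 were called in every alternative. Phvul.011G125400 was called in 9 of the 14. It was lost with library totals and without Inland treatment replicate 1 or 3 or Inland control replicate 2 or 3. Its levels were 62.1, 110.0 and 90.9 CPM in Inland treatment and 126, 185 and 202 CPM in Inland control.

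No gene was called higher by edgeR's quasi-likelihood test, its exact test or DESeq2. At an unadjusted p under 0.05 by the first of these, 15 of the 81 genes were higher and 22 lower. Over all tested genes 23.9% were higher and 23.0% lower at that limit. The largest fitted increase was that of Phvul.011G127600, with 32.9, 37.1 and 36.4 CPM in Inland treatment and 22.2, 18.2 and 19.4 CPM in Inland control. Its log2 fold change was 0.75 (standard error 0.09, edgeR fdr = 0.001196), under the 2-fold limit. Phvul.010G078600 was close behind, with 96.3, 93.8 and 98.4 CPM in Inland treatment and 59.7, 50.07 and 53.6 CPM in Inland control. Its log2 fold change was 0.74 (standard error 0.07, edgeR fdr = 0.0005277). In both, every treated library lay above every control.

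In the run of 4 neighbours on chromosome 1, the fitted log2 fold changes were all positive, at 0.54, 0.28, 0.33 and 0.74 in identifier order. Only the first and the last had an fdr under the limit (edgeR fdr = 0.001834 and 0.01045), and none reached 2-fold.

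In Beach, none of the 81 genes passed the filter of the main comparison, a level over 5 CPM in 3 or more libraries of the genotype, so none was tested there. With a filter of 1 CPM, 11 of the 81 could be tested at a dose of 400 mM. Of these, 2 were called lower with salt. None was called higher by either edgeR test or DESeq2, and none was higher at an unadjusted p under 0.05. This stands against 14.6% of 19622 genes called in either direction. A gene can pass this filter through the group in which it is higher, which favours a call in that direction. The directions above are therefore not read as a result, and the count is given as a description. Phvul.010G065400, 1 of the 2 genes called, passed the filter in this way. It held 0.489, 0.240 and 0.480 CPM in Beach treatment and 1.83, 1.94 and 1.72 CPM in Beach control, without overlap. No test is given for it in Beach, since its control libraries alone brought it past the filter. In Inland it held 41.06, 43.8 and 46.8 CPM in treatment and 87.3, 88.5 and 103 CPM in control. The log2 fold change there was -1.16, with a standard error of 0.09 (edgeR fdr = 0.0003611).

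Phvul.010G067900 was above 1 CPM in all Beach libraries. It held 1.73, 2.33 and 2.04 CPM in Beach treatment and 5.13, 4.61 and 3.27 CPM in Beach control. Its log2 fold change was -1.05 (standard error 0.23, edgeR fdr = 0.008299). This value lay at the 2-fold limit and was -0.92 without Beach control replicate 1, -0.99 without Beach control replicate 2 and -0.93 without Beach treatment replicate 1, each time short of the call. In Inland the gene held 191, 171 and 167 CPM in treatment and 243, 256 and 263 CPM in control. These groups did not overlap, and the change was under 2-fold.

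**Figure D5:**
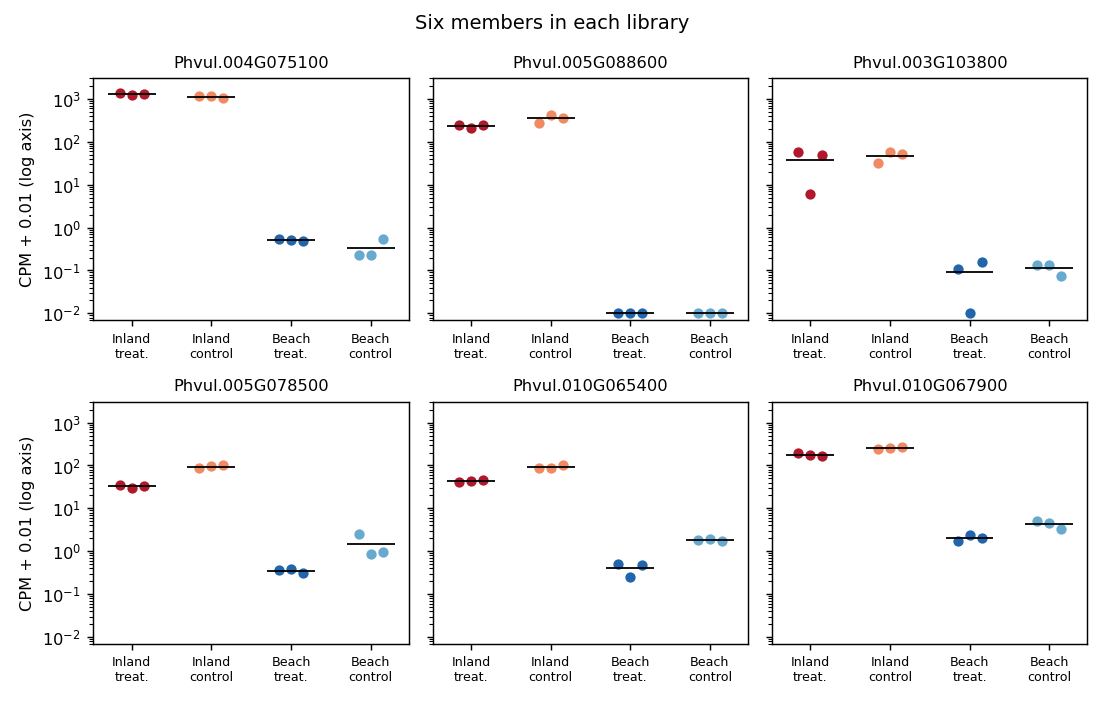
Level of 6 of the genes in each library, in CPM with 0.01 added on a log axis, by group. Points are the 3 replicates and lines the group means, and points at the bottom are libraries without a read. The Beach points of Phvul.010G065400 and Phvul.010G067900 lie lower with salt, as do their Inland points, while Phvul.003G103800 has 1 Inland treatment library far below the rest.

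At least 10 counts in 3 or more Beach libraries were reached by 25 of the 81 genes, a limit that a gene can also meet through its higher group alone. Beach treatment and control did not overlap for 8 of the 25, of which 6 (24.0%) were lower and 2 (8.0%) higher with salt. Over the 21057 genes that met the same minimum of counts, 31.1% were lower and 25.4% higher without overlap. Those genes were read far more deeply, the 25 having a median of 172 Beach counts and all such genes 3502. The direction of change was the same in both genotypes for 13 of the 25 (52.0%) and for 69.9% of such genes with counts in both Inland groups. In Inland, 4 of the 6 were lower and 1 of the 2 higher without overlap, and the other 3 overlapped. The matching share over all genes was not taken, so these counts are not read as a result. The doses differed between the genotypes, and the difference of the responses was not tested, because the genotype ratios in both conditions had chosen the genes.

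The spread between replicates was described for the Inland groups. The median coefficient of variation was 6.58% in Inland treatment and 7.86% in Inland control. Over all genes tested in Inland it was 6.47% in Inland treatment and 7.395% in Inland control. Phvul.003G103800 had the widest spread. It held 59.3, 6.14 and 48.4 CPM in Inland treatment and 32.7, 56.8 and 51.2 CPM in Inland control, so that replicate 1 of Inland treatment was 9.65 times replicate 2. This was the only one of the 81 with more than a 2-fold range in Inland treatment, against 1.99% of all tested genes. In Inland control 4 of the 81 genes had such a range, against 2.26% of all tested genes. Phvul.007G109000 had the widest of these, at 66.4, 112 and 142 CPM in Inland control, and held 102, 159 and 152 CPM in Inland treatment.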

How the data were processed

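The authors sequenced cDNA libraries of 12 pooled root samples with single-end reads, trimmed the reads with Trimmomatic 0.36, aligned them to the common bean genome Pvulgaris_218_v1.0 with STAR and deposited, per gene, the count of uniquely aligned reads on exons from featureCounts, without normalization. The versions of STAR and featureCounts are not given in the sources used here, and no strand option is named. All columns and genes were read. No reference annotation was used here, so genes carry neither names nor sequences, and the planned lists by product name were not run.

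CPM used library totals. Salt was compared with water within a genotype by edgeR 4.0.16 in R 4.3.3 (quasi-likelihood test, TMM, genes above 5 CPM in at least 3 of 6 libraries, Benjamini-Hochberg over all tested genes). Standard errors were derived from the F statistic. edgeR's exact test, named in the authors' code, DESeq2 1.42.0, other scalings and filters and each library left out were alternatives. The fit was checked on simulated data. Descriptions used Python 3.11.15. The 81 genes, the lists and the tests were chosen with earlier results of these data known.

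Named genes followed a rule: the 2 largest falls and increases in Inland, the 5 most abundant, the 5 most abundant without a Beach read, 2 on each side of the limit, those called in Beach and the 2 with the widest Inland spread. Of 6 planned names per direction 2 are given, as the identifiers carry no names. The other genes, such as those in runs, were chosen after their values were seen. Replicates are separate pools of plants, and reads carried no molecular identifiers, so limits from counts cover counting error only.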

Additional observations from a re-analysis of the deposited data

How the results depend on the processing

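The number of genes meeting the rule was 81. It was 33 with an offset of 2 and 48 with a minimum of 32-fold, and all of these were among the 81. An offset of 0.1 gave 111 and a minimum of 8-fold 112, each with all 81. TMM scaling, thinning to the smallest library and group medians gave 82 each, and leaving out each library gave 79 to 83. Of the 6 genes called in Inland, 5 were called with library totals and 4 to 6 with a library left out, and 30 passed without the fold minimum. In Inland no setting with the fold minimum called a gene higher. In Beach 0 genes were tested or called in the main comparison, the exact test and DESeq2 included. A filter of 1 CPM gave 2 and no filter 5, 1 of them higher. The 1 CPM filter was planned. Leaving out a library under it, added after seeing the data, gave 1 to 2. Replicate numbers were shared between groups, but same-numbered Inland libraries deviated together only weakly, with correlations of 0.0472, -0.124 and 0.0584. With the replicate block 5 genes were called in Inland (Phvul.001G110700 was not, at -1.39) and 0 in Beach, or 2 in Beach at 1 CPM. At a minimum of 32-fold, 45 of 47 genes with a chromosome number lay within 100 identifiers of another. Causes of these shifts were not tested. Depth limits the Beach values most, where the median gene held 11 reads in all.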
